A study of Homo sapiens with 6 samples.

Results

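The 9 genes described here encode MHC class I heavy chains (HLA-B, HLA-C, HLA-E and HLA-F), the shared light chain (B2M), the peptide transporter (TAP1 and TAP2) and 2 subunits of the immunoproteasome (PSMB8 and PSMB9). They were picked by symbol for these roles, not by their values, and are 9 of the 35322 genes in the count table. Of them, 8 passed the filter on low counts, which left 16510 genes in the test. HLA-F did not pass.

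RNA was sequenced from 22Rv1, an established human prostate carcinoma cell line, in 3 groups of 2 libraries each. The control group is labelled genotype WT, and the other groups, ZMYND11 kd1 and ZMYND11 kd2, are labelled ZMYND11 knockdown. ZMYND11 is a chromatin reader of histone H3.3 methylated at lysine 36, and the comparison asks how the transcriptome differs when its level is reduced. The labels list no treatment and the same serum-containing medium for all groups, and name no age or donor because the samples are cultures of 1 line. The knockdowns were made with short hairpin RNAs from lentiviral vectors. Per the study's methods, cells infected with such vectors were selected with puromycin and then kept in a lower dose of it. The study describes the sequenced control cells as carrying control hairpins, although the labels call them WT. If the controls were not infected, infection and selection cannot be told apart from the knockdown. The sources used here do not say which hairpin each knockdown group carried or whether the replicate libraries came from separate cultures. The p-values given here therefore measure only the spread between these libraries, which may be technical.

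MHC class I molecules show short peptides from inside the cell to CD8+ T cells. The proteasome cuts proteins into peptides, TAP1 and TAP2 form the pump that carries the peptides into the endoplasmic reticulum, and a loading complex places them on a heavy chain paired with β2-microglobulin, the product of B2M. PSMB8 and PSMB9 replace constitutive catalytic subunits of the proteasome in the immunoproteasome, and interferon raises the transcription of most of these genes in many tissues. Tumours, including prostate carcinomas, often carry less class I at their surface than the tissue they come from.

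The promoters show which known control elements these genes share by sequence. RefSeq promoter windows on GRCh38.p14, from 250 bases before to 50 bases after a transcription start, were matched by symbol for 8 of the 9 genes, all but HLA-E. HLA-B, HLA-C and HLA-F held a CCAAT box at nearly the same distance from the start, 56, 56 and 57 bases upstream, within a stretch that is close to identical in the 3 genes. It is shown because these heavy chains are members of 1 family yet their RNA levels in these cells lay far apart. All 3 windows also held the reverse complement, ATTGG, at 81, 80 and 82 bases upstream, and those of HLA-B and HLA-C held further matches. Which of these matches a protein binds was not tested. Capitals mark the letters CCAAT, and each sequence is given 5′ to 3′ on the gene's own strand.
HLA-B, chr6:31357218-31357247, minus strand: tatctagagaagCCAATcagcgtcgccgcg
HLA-C, chr6:31272131-31272160, minus strand: gttctagagaagCCAATcagcgtctccgca
HLA-F, chr6:29723365-29723394, plus strand: tttctagagaagCCAATcagtgtcgccgca

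Further upstream, HLA-B and HLA-C also shared TGACG, a short form of the cyclic AMP response element, at 106 and 105 bases before the start. Capitals mark it below. Bases that bind RFX, CREB-family and NF-Y proteins make up the enhanceosome on which the class I transactivator NLRC5 acts, and NLRC5 and its partners are described further on.
HLA-B, chr6:31357268-31357297, minus strand: ccaggatactcgTGACGcgtccccacttcc
HLA-C, chr6:31272180-31272209, minus strand: cctgaatactcaTGACGcgtccccaattcc

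The core of the interferon-stimulated response element, searched as GAAA, any 2 bases and GAAA again, was found in the windows of HLA-F, B2M, TAP1, TAP2 and PSMB8. It is shown for the 4 of these genes that were tested, with its letters or their reverse complement in capitals.
B2M, chr15:44711369-44711398, plus strand: ctaagaaaagGAAACTGAAAacgggaaagt
TAP1, chr6:32853813-32853842, minus strand: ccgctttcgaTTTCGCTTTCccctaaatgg
TAP2, chr6:32838778-32838807, minus strand: ctggggaagcGAAAGCGAAAgctgcccgag
PSMB8, chr6:32844032-32844061, minus strand: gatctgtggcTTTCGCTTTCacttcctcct

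All motifs were searched on both strands. The interferon core was present in 5 of the 8 genes and in 3.57% of all 35116 promoter windows. CCAAT was present in 6 of 8 and in 34.6% of all windows, TGACG in 6 of 8 and in 24.6%, and the κB motif (GGG, any 2 bases, TT, any base and CC) in 3 of 8 (HLA-B, B2M and TAP1) and in 5.68%. TAP1 and PSMB8 each have 2 windows in the table, and the windows of TAP1 and PSMB9, which are transcribed away from each other, overlap at their outer ends, so that 1 CCAAT match is counted for both. In B2M and TAP1, 2 matches to the interferon core overlap. A match describes letters in the window and is not a measured binding site.

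Total counts per library were 26844128 to 27639713 in control, 33807634 to 38193748 in kd1 and 33760573 to 36040761 in kd2. Counts of ZMYND11 itself were 4283 and 4179 (control), 941 and 773 (kd1) and 770 and 779 (kd2), so all knockdown libraries lay below both controls. In edgeR's quasi-likelihood test with Benjamini-Hochberg adjustment over all tested genes, the threshold was an adjusted p under 0.05. It was passed by 78.0% of genes for kd1 against control (38.2% higher, 39.8% lower), by 73.4% for kd2 against control (36.5% higher, 36.9% lower) and by 68.8% for kd2 against kd1 (34.9% higher, 33.8% lower). The median log2 fold change of all genes was -0.03, -0.03 and 0.02 in these comparisons. Scaling by library totals alone moved it to -0.38, -0.20 and 0.21, and moved the share of calls that were higher from 49.0% to 35.3% in kd1 and from 50.8% to 61.1% in kd2 against kd1. Across 15950 genes with annotated values, the log2 fold change followed GC content and transcript length, with Spearman's rho of 0.20 and -0.32 for kd1, -0.03 and -0.12 for kd2 and -0.30 and 0.31 for kd2 against kd1. A second fit with this trend removed is therefore given beside the class I genes and where it changed the fold (not its log2) of another named gene by over 1.5 times or changed a call. Both comparisons with control share the same 2 control libraries.

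Of the 8 tested class I genes, 4 rose, 2 fell and 2 did not pass the threshold in kd1, which is 75.0% called against the 78.0% of all genes. In kd2, 3 rose, 2 fell and 3 did not pass, 62.5% against 73.4%. The share called was thus no larger than among all genes, and the genes did not move as 1 block: HLA-B, HLA-C and B2M rose in both knockdowns and HLA-E fell in both, while TAP1 fell and PSMB8 rose in kd1 and PSMB9 fell in kd2. The median log2 fold change of the 8 genes was 0.65 in kd1 and 0.10 in kd2, against -0.03 for all genes in each. With the GC and length trend removed, the medians of the 8 genes were 0.30 and 0.03, and those of all genes 0.02 and 0.01. By library totals the medians of the 8 genes were 0.30 and -0.07, with as many genes called in each direction as before.

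**Figure D1:**
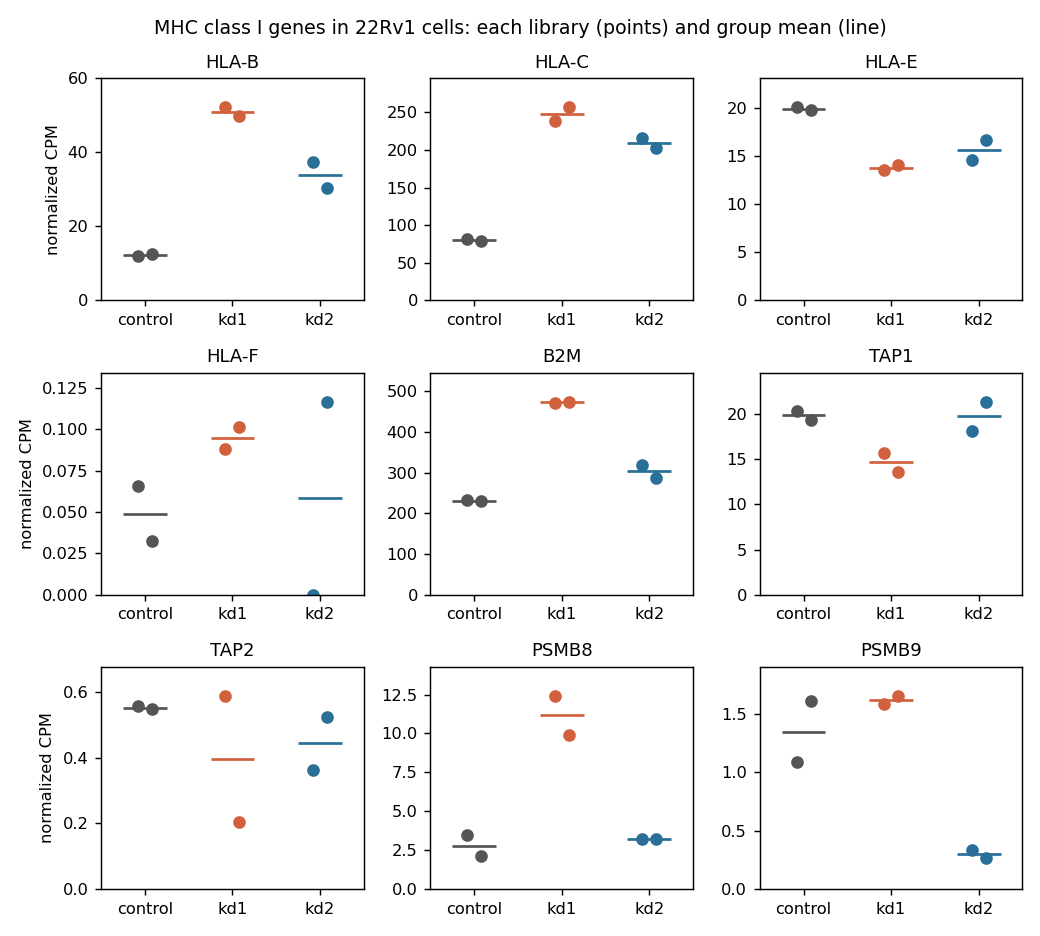
CPM, normalized by TMM factors, of each of the 9 genes in the 6 libraries; points are libraries, horizontal lines are group means of 2 libraries, and each panel has its own linear axis from 0. HLA-B, HLA-C and B2M lie higher in both knockdowns than in control, PSMB8 lies higher in kd1 alone among the groups drawn, and PSMB9 lies lowest in kd2, while HLA-F and TAP2 stay under 1.

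HLA-B (ENSG00000234745.14, chr6:31353872-31367067, minus strand, GRCh38) encodes a classical, highly polymorphic heavy chain. It was at 366 and 394 counts in control, 1773 and 1479 in kd1 and 1335 and 1042 in kd2. After normalization to CPM (counts per 1e6 reads, with library sizes scaled by TMM factors) these were 12.0 and 12.7 CPM, 52.2 and 50.0 CPM, and 37.4 and 30.4 CPM. The 3 groups did not overlap, with kd1 highest and control lowest. By edgeR, HLA-B rose 4.13-fold in kd1 (log2 fold change 2.05, SE 0.10, adjusted p = 1.13e-10) and 2.74-fold in kd2 (1.46, SE 0.10, adjusted p = 8.51e-09). With the GC and length trend removed these were 2.90-fold and 2.60-fold higher. In the annotation, a gene on the opposite strand covers 23.7% of the bases of the canonical HLA-B transcript. Over all its transcripts, other genes cover 47.3% of the exon bases. How reads there were counted is not given in the sources used here.

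HLA-C (ENSG00000204525.18, chr6:31268749-31272130, minus strand) encodes another classical heavy chain, and its product is also a ligand of inhibitory receptors on natural killer cells. Its counts were 2468 and 2442 in control, 8118 and 7597 in kd1, and 7731 and 6932 in kd2, or 81.1 and 78.6 CPM, 239 and 257 CPM, and 216 and 202 CPM. Every knockdown library was above both control libraries. HLA-C rose 3.10-fold in kd1 (edgeR, log2 fold change 1.63, SE 0.06, adjusted p = 5.66e-12) and 2.62-fold in kd2 (1.39, SE 0.06, adjusted p = 4.78e-11). With the GC and length trend removed the rise in kd1 was 1.79-fold and that in kd2 was 2.45-fold. The GC content of HLA-C was at percentile 87.9 of the genes with annotated values.

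HLA-E (ENSG00000204592.9, chr6:30489509-30494194, plus strand) encodes a nonclassical heavy chain that presents leader peptides of other class I molecules to NKG2 receptors on natural killer cells. It moved the other way. Its counts were 612 and 617 in control, 462 and 417 in kd1 and 522 and 573 in kd2, which is 20.1 and 19.9 CPM, 13.6 and 14.1 CPM, and 14.6 and 16.7 CPM. All 4 knockdown libraries were below both controls. HLA-E fell to 0.692 of control in kd1 (edgeR, log2 fold change -0.53, SE 0.10, adjusted p = 0.000205) and to 0.784 of control in kd2 (-0.35, SE 0.10, adjusted p = 0.00479). With the trend removed, HLA-E was at 0.521 and 0.761 of control.

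HLA-F (ENSG00000204642.14, chr6:29722775-29738528, plus strand), a second nonclassical heavy chain, was close to absent from the counts. It had 2 and 1 counts in control, 3 and 3 in kd1 and 0 and 4 in kd2. The count of 0 allows up to 3 counts in that library, so no difference was detectable at this depth. In the annotation, 42.0% of the bases of its canonical transcript are covered by genes on the opposite strand. Its promoter window nevertheless carried the same CCAAT stretch as those of HLA-B and HLA-C.

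The heavy chain genes resemble each other in sequence, so reads from 1 may have been assigned to another or discarded, and the split among them is uncertain to that extent. They are also highly polymorphic, and reads were counted on the alleles of the reference genome. Where the alleles of 22Rv1 differ from these, reads can be lost or assigned to another gene, which could change the shares and the order of levels of the heavy chains given further on. This was not tested. Other class I symbols in the table, HLA-G, HLA-J, HLA-K, HLA-V and HLA-Z, were listed at 0 in every library, and HLA-L had 1 to 9 counts. No class I gene described here had the same counts as another symbol in all libraries.

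B2M (ENSG00000166710.23, chr15:44711358-44718851, plus strand) encodes the light chain that every class I heavy chain needs to reach the surface. It was the most highly expressed of the 9 genes, at 7056 and 7127 counts in control, 15993 and 14056 in kd1 and 11403 and 9837 in kd2. This is 232 and 229 CPM in control, 471 and 475 CPM in kd1 and 319 and 287 CPM in kd2, with no overlap between groups. B2M rose 2.05-fold in kd1 (edgeR, log2 fold change 1.04, SE 0.06, adjusted p = 3.99e-10) and 1.31-fold in kd2 (0.39, SE 0.06, adjusted p = 1.93e-05). With the trend removed these were 1.55-fold and 1.14-fold, both still past the threshold.

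Heavy chains and light chain did not rise in the same proportion. Per kilobase of canonical transcript, the summed reads of HLA-B, HLA-C, HLA-E and HLA-F were 0.278 and 0.276 of those of B2M in control, 0.389 and 0.406 in kd1 and 0.503 and 0.518 in kd2. The order of the groups was the same with the GC and length trend removed, at 0.288 and 0.291, 0.325 and 0.341, and 0.576 and 0.586. The composition of the heavy chains also differed. HLA-E made up 11.5% and 11.6% of heavy chain reads per kilobase in control, 2.75% and 2.70% in kd1 and 3.37% and 4.16% in kd2. HLA-C made up most of the rest in every library, from 76.0% to 83.2%, and HLA-B from 11.5% to 17.5%. With 2 libraries against 2, an exact permutation test cannot reach the 0.05 threshold, so these proportions are given as descriptions.

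**Figure D2:**
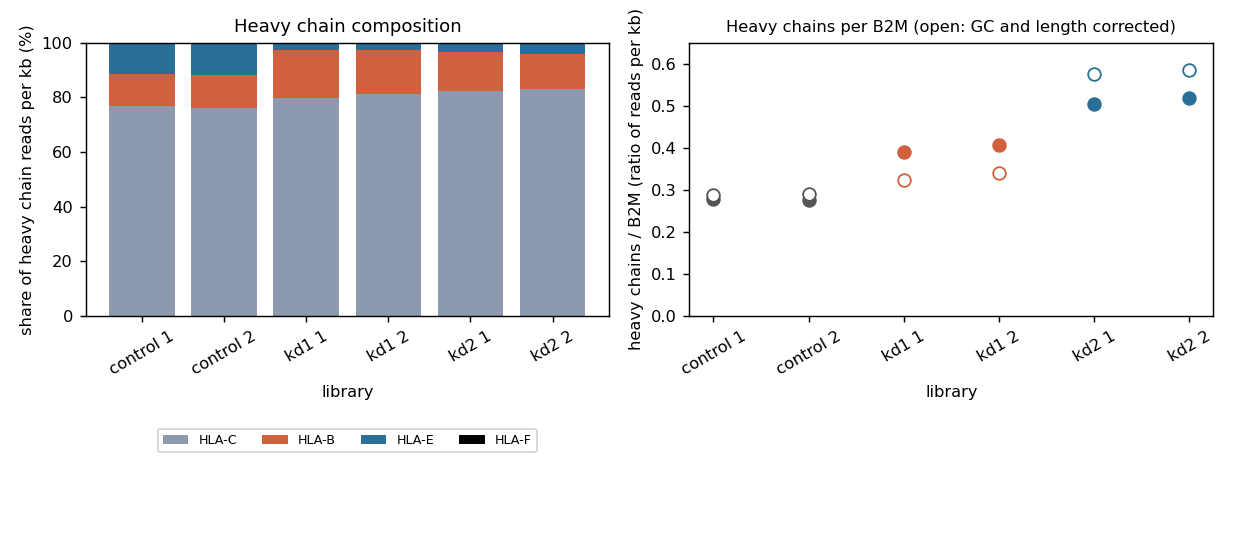
Left, share of heavy chain reads per kilobase (%) taken by HLA-C, HLA-B, HLA-E and HLA-F in each library, stacked to 100; right, ratio of summed heavy chain reads per kilobase to B2M reads per kilobase, with filled points as counted and open points with the GC and length trend removed. The HLA-E band narrows from 11.5% and 11.6% in control to between 2.70% and 4.16% in the knockdown libraries, and the ratio is highest in kd2.

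TAP1 (ENSG00000168394.13, chr6:32845209-32853816, minus strand), one chain of the peptide transporter, was at 619 and 603 counts in control, 534 and 403 in kd1 and 648 and 733 in kd2. In CPM this is 20.3 and 19.4, 15.7 and 13.6, and 18.1 and 21.4. The kd1 libraries were below all others, and the kd2 libraries spanned the controls. TAP1 fell to 0.739 of control in kd1 (edgeR, log2 fold change -0.44, SE 0.11, adjusted p = 0.00211), and in kd2 the log2 fold change was -0.01 (SE 0.11, adjusted p = 0.945). With the trend removed, TAP1 was at 0.627 and 0.982 of control. TAP1 therefore did not rise beside B2M and the classical heavy chains in either knockdown. PSMB8-AS1, a gene on the opposite strand that covers 21.5% of the canonical TAP1 transcript, was listed at 0 in all libraries. How reads in such overlaps were counted is not given in the sources used here. If reads matching both genes were dropped, TAP1 would have lost reads too, so a listed 0 does not show that a gene had none.

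TAP2 (ENSG00000204267.19, chr6:32821833-32838739, minus strand), its partner, had few reads: 17 and 17 counts in control, 20 and 6 in kd1 and 13 and 18 in kd2. The groups overlapped. Its log2 fold changes were -0.45 (SE 0.56, edgeR adjusted p = 0.473) in kd1 and -0.32 (SE 0.54, adjusted p = 0.615) in kd2, and errors of this size leave changes in either direction undetected. With the trend removed they were -0.02 and -0.15. Another annotated protein-coding gene, ENSG00000250264, covers 35.8% of the canonical TAP2 transcript on the same strand, and how reads in that stretch were counted is not given in the sources used here.

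PSMB8 (ENSG00000204264.12, chr6:32840717-32844679, minus strand) encodes the immunoproteasome subunit that replaces PSMB5. Its counts were 105 and 65 in control, 422 and 293 in kd1 and 114 and 111 in kd2, or 3.45 and 2.09 CPM, 12.4 and 9.90 CPM, and 3.19 and 3.24 CPM. Both kd1 libraries were above all others, and both kd2 libraries lay between the control values. PSMB8 rose 4.04-fold in kd1 (edgeR, log2 fold change 2.01, SE 0.20, adjusted p = 3.68e-07), or 2.64-fold with the GC and length trend removed. In kd2 the log2 fold change was 0.22 (SE 0.23, adjusted p = 0.405), or 0.08 with the trend removed. Without the first control library, the higher of the pair, it was 0.62 with an edgeR adjusted p of 0.0448, so 1 library decides that call.

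PSMB9 (ENSG00000240065.8, chr6:32844136-32859851, plus strand), which replaces PSMB6, lies next to TAP1 and behaved differently from PSMB8. It had 33 and 50 counts in control, 54 and 49 in kd1 and 12 and 9 in kd2, or 1.08 and 1.61 CPM, 1.59 and 1.66 CPM, and 0.336 and 0.263 CPM. The kd1 libraries overlapped the controls and the kd2 libraries were far below both. PSMB9 fell to 0.225 of control in kd2 (edgeR, log2 fold change -2.15, SE 0.41, adjusted p = 0.000267), and its log2 fold change in kd1 was 0.27 (SE 0.33, adjusted p = 0.468). With the trend removed, PSMB9 in kd2 was at 0.203 of control, and the uncalled value in kd1 had the other sign (-0.29, adjusted p = 0.429), as it had by library totals (-0.09, adjusted p = 0.813).

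**Figure D3:**
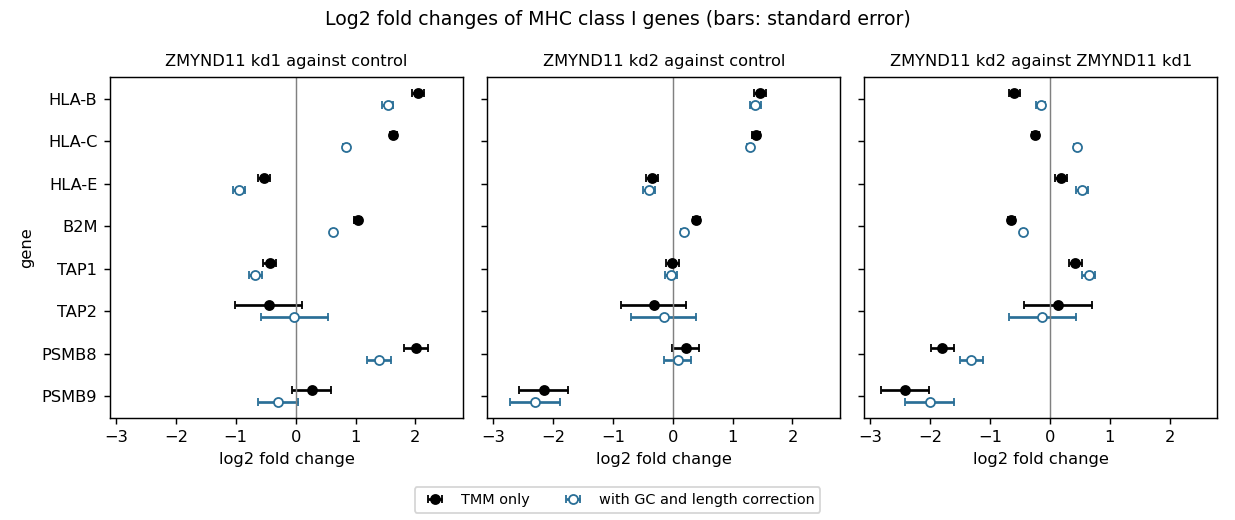
Log2 fold changes of the 8 tested class I genes in the 3 comparisons, with bars of 1 standard error; black points are the edgeR fit with TMM factors and open blue points the fit with the GC and length trend removed. HLA-B, HLA-C and B2M are above 0 in both comparisons with control, HLA-E is below 0 in both, and in kd2 against kd1 HLA-C changes side between the fits, from -0.24 to 0.45.

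The knockdowns were also compared with each other. In kd2 against kd1, 1 of the 8 genes was higher (TAP1) and 5 were lower (HLA-B, HLA-C, B2M, PSMB8 and PSMB9), 75.0% called against the 68.8% of all genes. PSMB9 fell by 2.42 on the log2 scale (SE 0.40, edgeR adjusted p = 8.53e-05), PSMB8 fell by 1.80 (SE 0.20, adjusted p = 1.31e-06) and B2M fell by 0.64 (SE 0.06, adjusted p = 1.37e-07). TAP1 rose by 0.43 (SE 0.11, adjusted p = 0.00276). These 4 calls and directions were the same with the GC and length trend removed, at -2.01, -1.32, -0.44 and 0.65. The heavy chains were less settled. HLA-B was lower by the main fit (log2 fold change -0.59, SE 0.09, edgeR adjusted p = 3.78e-05) and missed the threshold with the trend removed (-0.15, adjusted p = 0.0825). HLA-C was lower by the main fit (-0.24, SE 0.06, adjusted p = 0.00153), missed the threshold when scaled by library totals (-0.06, adjusted p = 0.340) and was higher with the trend removed (0.45, adjusted p = 3.20e-08). HLA-E had a log2 fold change of 0.18 (SE 0.10, adjusted p = 0.128), which passed the threshold with the trend removed (0.55, adjusted p = 7.58e-05), by library totals (0.36, adjusted p = 0.00632) or without the first kd2 library (0.27, adjusted p = 0.0352). With the trend removed, 3 of the 8 genes were higher and 3 lower in kd2 against kd1, and by library totals 2 were higher and 4 lower.

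Levels can be set beside each other only per length, here as mean CPM per kilobase of canonical transcript. In control the order was B2M (245), HLA-C (51.8), HLA-B (8.04 ± 0.303, SD, n = 2), HLA-E (7.84 ± 0.0679), TAP1 (7.40 ± 0.244), PSMB8 (2.47 ± 0.854), PSMB9 (1.32 ± 0.365), TAP2 (0.0980) and HLA-F (0.0331). HLA-B and HLA-E overlapped there. In kd1 the order was B2M (501), HLA-C (161), HLA-B (33.3), PSMB8 (9.93), TAP1 (5.46 ± 0.555), HLA-E (5.43 ± 0.135), PSMB9 (1.60), TAP2 (0.0701) and HLA-F (0.0641). TAP1 and HLA-E overlapped, as did TAP2 and HLA-F, and PSMB8 stood above TAP1 and HLA-E. In kd2 the order was B2M (321), HLA-C (136), HLA-B (22.1), TAP1 (7.36 ± 0.859), HLA-E (6.15 ± 0.588), PSMB8 (2.86), PSMB9 (0.294), TAP2 (0.0788) and HLA-F (0.0395), with overlap only between TAP2 and HLA-F. HLA-B was thus level with HLA-E in control and several times above it in both knockdowns.

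The immunoproteasome subunits were minor forms in all libraries. PSMB8 made up 2.95% and 1.71% of the reads per kilobase of PSMB8 and its constitutive partner PSMB5 in control, 4.04% and 3.08% in kd1 and 1.20% and 1.37% in kd2. PSMB9 made up 0.912% (95% exact Clopper-Pearson interval 0.629 to 1.28) and 1.31% (0.974 to 1.73) of PSMB9 and PSMB6 in control. Its share was 0.333% and 0.330% in kd1, and 0.122% (0.0629 to 0.213) and 0.113% (0.0515 to 0.214) in kd2. The PSMB9 share was therefore lower in kd1 than in control although PSMB9 itself did not pass the threshold there, and PSMB6 rose in kd1. PSMB10, the remaining immune form, made up 2.48% and 2.01% of PSMB10 and PSMB7 in control, 3.47% and 3.33% in kd1 and 1.33% and 1.66% in kd2. The intervals and the limit on a count of 0 cover counting error only, since reads without molecular identifiers are not independent molecules.

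**Figure D4:**
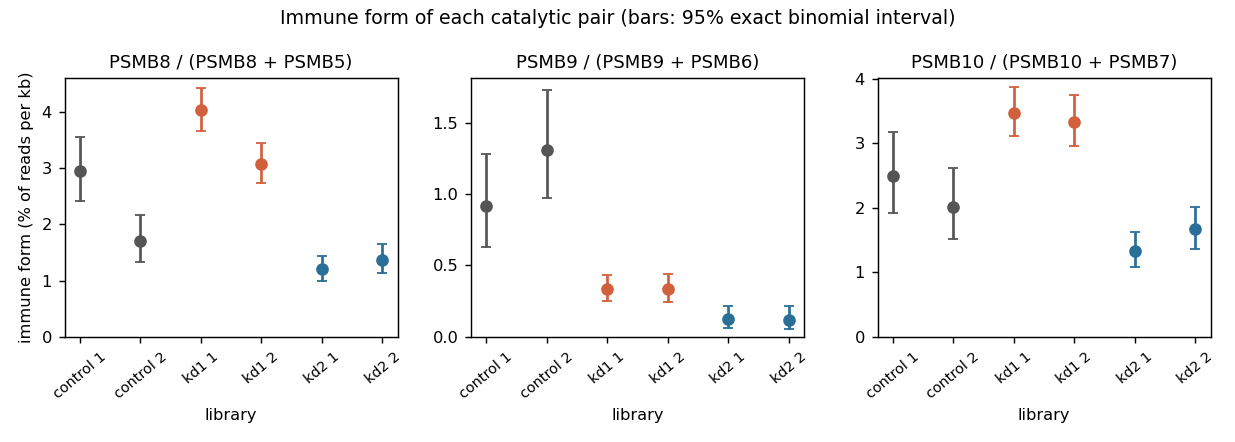
Share of reads per kilobase taken by the immune form in each catalytic pair (PSMB8 with PSMB5, PSMB9 with PSMB6, PSMB10 with PSMB7), in percent, for each of the 6 libraries; bars are 95% exact binomial intervals that cover counting error only. All shares are under 5%, those of PSMB8 and PSMB10 are lowest in kd2, and that of PSMB9 steps down from control to kd1 to kd2.

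The proteasome genes around them rose more evenly. Of 7 activator and catalytic subunit genes (PSME1, PSME2, PSME3, PSMB5, PSMB6, PSMB7 and PSMB10), all 7 rose in kd1 (6 by library totals), with a median log2 fold change of 1.40 against -0.03 for all genes (0.77 with the trend removed), where 38.2% of all genes rose. In kd2, 5 rose and 1, PSME1, fell (85.7% called against 73.4%), and the median was 0.57. With the trend removed or by library totals, 4 rose and 1 fell in kd2 (71.4% called), with medians of 0.43 and 0.40. PSMB6 was at 95.4 and 98.2 CPM in control, 385 and 405 in kd1 and 223 and 189 in kd2, and rose 4.08-fold and 2.13-fold (edgeR adjusted p = 4.73e-12 and 4.31e-09; 2.43-fold and 1.97-fold with the trend removed). PSMB5 rose 2.60-fold and 2.12-fold (edgeR adjusted p = 7.23e-11 and 1.54e-09; 1.67-fold and 1.93-fold with the trend removed). PSMB7, the constitutive partner of PSMB10, rose 3.17-fold and 2.25-fold (adjusted p = 5.90e-12 and 3.53e-10). PSMB10 rose 4.87-fold in kd1 (adjusted p = 1.60e-08; 2.30-fold with the trend removed) and 1.48-fold in kd2 (adjusted p = 0.0175). The last call was lost with the trend removed (edgeR adjusted p = 0.0697), by library totals (0.0859), and without the second control library (0.117) or the second kd2 library (0.0774). On the same strand, the annotated gene ENSG00000261884 covers 56.1% of the canonical PSMB10 transcript.

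Of 8 peptide loading and trimming genes, 1 rose and 5 fell in kd1 (median log2 fold change -0.51), 75.0% called against 78.0% of all genes. In kd2, 2 rose and 5 fell (median -0.54), 87.5% against 73.4%. In kd1, 1 rose and 7 fell by library totals (median -0.86), and 1 rose and 6 fell with the trend removed (median -0.55). UGGT1, a folding sensor that returns poorly loaded class I to the loading complex, was at 64.0 and 62.4 CPM in control, 9.63 and 10.9 in kd1 and 22.5 and 21.0 in kd2. It fell to 0.162 and 0.344 of control (edgeR adjusted p = 2.39e-12 and 3.33e-10), or 0.292 and 0.470 with the trend removed. CANX, which encodes the chaperone calnexin that binds new heavy chains, fell to 0.176 and 0.416 of control (adjusted p = 4.25e-12 and 4.91e-09). PDIA3, the disulfide isomerase ERp57 of the loading complex, rose 1.96-fold and 1.35-fold (adjusted p = 4.61e-10 and 4.81e-06). TAPBPL, a peptide editor related to tapasin, fell to 0.518 of control in kd2 (edgeR adjusted p = 9.49e-06). In kd1 its log2 fold change was -0.06 (edgeR adjusted p = 0.644), or -0.60 with the trend removed (adjusted p = 0.000171).

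Among 13 regulators of class I promoters, 6 rose and 4 fell in kd1 (median log2 fold change 0.36) and 7 rose and 2 fell in kd2 (median 0.33). By library totals, 3 rose and 6 fell in kd1 (median 0.0011) and 6 rose and 3 fell in kd2 (median 0.16). The majority direction in kd1 thus depends on the scaling, which moved the median of all genes there from -0.03 to -0.38. The shares called, 76.9% and 69.2%, were near those of all genes, 78.0% and 73.4%. NLRC5, the class I transactivator, was low in control at 18 and 11 counts, and was at 227 and 164 counts in kd1 and 101 and 112 in kd2, with no overlap. It rose 12.9-fold in kd1 (edgeR, log2 fold change 3.69, SE 0.27, adjusted p = 1.12e-08) and 6.41-fold in kd2 (2.68, SE 0.29, adjusted p = 1.16e-06). The genes of its promoter partners did not all follow. RFX5, a subunit of the RFX complex, fell by 1.74 and 1.49 on the log2 scale (adjusted p = 4.09e-11 and 2.69e-10), and NFYA, a subunit of the CCAAT-binding factor NF-Y, fell to 0.421 and 0.407 (adjusted p = 5.50e-08 and 4.98e-08). Other subunits of these complexes differed. RFXANK rose 2.04-fold in kd1 (1.14-fold with the trend removed). In kd2 it was uncalled at 0.944 of control, and called at 0.877 with the trend removed. RFXAP fell to 0.798 of control in kd1 and rose 1.39-fold in kd2. NFYB rose 1.31-fold and 1.23-fold, and NFYC 1.28-fold and 1.82-fold. By library totals NFYB lost both calls and NFYC that in kd1, also lost with the trend removed. CREB1, of the CREB family, was called lower in kd1 (log2 fold change -0.36) but called higher with the trend removed (0.58). In kd2 CREB1 was uncalled at 0.12, and called at 0.46 with the trend removed. RELA, an NF-κB subunit, rose 1.94-fold and 2.03-fold (edgeR adjusted p = 6.79e-10 and 5.55e-10). Whether these RNA changes bear on the class I promoters printed above was not tested.

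The interferon pathway did not shift in 1 direction. Of 12 receptor and signalling genes, 10 were tested, and 2 rose and 2 fell in kd1 while 5 rose and 3 fell in kd2 (median log2 fold change 0.09 and 0.32; 4 and 8 of 10 called, against 78.0% and 73.4% of all genes). By library totals, 1 rose and 7 fell in kd1 (median -0.27) and 3 rose and 3 fell in kd2 (median 0.15). The list median in kd1 thus changed sign with a scaling that moved the median of all genes there from -0.03 to -0.38. TYK2, a receptor kinase, fell to 0.520 and 0.583 of control (edgeR adjusted p = 5.93e-08 and 5.80e-07), and IFNGR1, an interferon gamma receptor chain, rose 1.53-fold and 1.41-fold (adjusted p = 4.09e-07 and 5.30e-06). JAK1, another receptor kinase, fell by 0.46 on the log2 scale in kd1 (adjusted p = 0.00190), a call absent with the trend removed (0.02, adjusted p = 0.904), and fell by 0.51 in kd2 (adjusted p = 0.000989; -0.34 with the trend removed). IFNAR1, a type I interferon receptor chain, rose by 0.73 in kd2 (adjusted p = 1.56e-08). In kd1 it rose by 0.16 (edgeR adjusted p = 0.0125), by 0.77 with the trend removed (adjusted p = 2.36e-11), with the opposite sign by library totals (-0.19, adjusted p = 0.00583) and no call without the first control library (0.142), the first kd1 library (0.0514) or the second kd1 library (0.0768). IFNAR2 and IRF9 were listed at 0 in every library, and 93.1% of the canonical IRF9 transcript is covered by another annotated gene, and how reads there were counted is not given in the sources used here.

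Among 15 interferon-stimulated genes outside class I, 7 rose and 3 fell in kd1 and 3 rose and 6 fell in kd2, with a median log2 fold change of 0.99 and -0.36 (66.7% and 60.0% called against 78.0% and 73.4%). The kd1 median was 0.20 with the trend removed and 0.64 by library totals. OAS3, a sensor of double-stranded RNA, fell from 27.8 and 25.9 CPM in control to 1.00 and 1.52 in kd1 and 1.65 and 1.63 in kd2 (edgeR log2 fold change -4.43 and -4.03, adjusted p = 7.21e-12 and 1.77e-11). IRF7, a transcription factor of the type I response, rose 5.72-fold and 1.56-fold (adjusted p = 1.32e-10 and 0.000787; 2.91-fold and 1.47-fold with the trend removed). ISG15, a ubiquitin-like modifier, rose 3.69-fold and 1.81-fold (adjusted p = 4.25e-12 and 2.89e-08; 1.59-fold and 1.67-fold with the trend removed). BST2, which encodes tetherin, fell to 0.494 of control in kd2 (adjusted p = 0.000763). Its fall to 0.713 in kd1 (edgeR adjusted p = 0.0484) was lost without any 1 of the control or kd1 libraries (0.111 to 0.141) and with the replicate block (0.0608), and was to 0.404 with the trend removed.

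Of 9 class I-like and NKG2D ligand genes, 8 were tested, and 4 rose and 1 fell in kd1 (median log2 fold change 0.58) and 6 rose and 1 fell in kd2 (median 1.06), 62.5% and 87.5% called against 78.0% and 73.4%. The kd1 median was 0.23 by library totals. MICA, a stress ligand of the NKG2D receptor on natural killer and T cells, was at 3.71 and 4.80 CPM in control, 21.2 and 20.2 in kd1 and 14.2 and 12.6 in kd2, and rose 4.87-fold and 3.15-fold (edgeR adjusted p = 7.95e-10 and 5.42e-08). MR1, which presents microbial vitamin B metabolites, rose 1.78-fold and 3.26-fold (adjusted p = 2.87e-07 and 1.49e-10; 2.86-fold and 4.01-fold with the trend removed). FCGRT, the heavy chain of the neonatal Fc receptor, which also pairs with β2-microglobulin, rose 4.17-fold in kd1 (adjusted p = 2.34e-10; 2.34-fold with the trend removed) and fell to 0.598 of control in kd2 (adjusted p = 9.85e-05). ULBP1, another NKG2D ligand, rose 1.63-fold in kd2 (edgeR adjusted p = 0.000116). In kd1 it was at 0.807 of control (edgeR adjusted p = 0.0439), a call lost with the trend removed (0.494), with the replicate block (0.0599) and without any 1 of the control or kd1 libraries (0.0963 to 0.135).

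**Figure D5:**
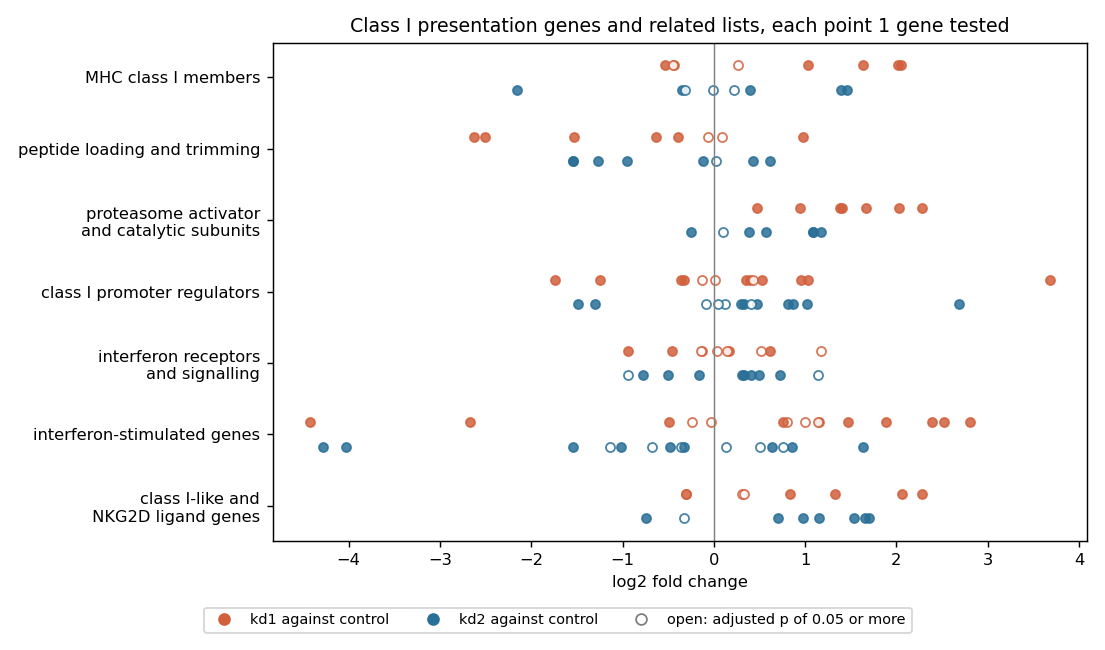
Log2 fold change of every tested gene of the class I set and of 6 related lists, in kd1 (orange) and kd2 (blue) against the same 2 control libraries; each point is 1 gene, filled where the edgeR adjusted p is under 0.05 and open otherwise. All 7 proteasome activator and catalytic genes lie above 0 in kd1, most loading and trimming genes lie below 0, and NLRC5 at 3.69 and 2.68 is the highest regulator of class I promoters in each comparison.

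The genes whose pattern over the 6 libraries was nearest to the median pattern of the 8 tested class I genes were ATP6V0A1, C1QTNF6, EPS8L2, HAP1 and AGGF1. Their distances were 0.37, 0.38, 0.39, 0.39 and 0.40 (Euclidean, on log2 CPM centred on each gene's mean). The class I genes were farther from their own median pattern, from 0.54 for B2M to 2.30 for PSMB9.

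The label of the line was checked against markers. The 10 prostate epithelial markers, such as the androgen receptor and keratins 8 and 18, summed to 3218 to 3251 CPM in control, 4171 to 4210 in kd1 and 4547 in both kd2 libraries. The 9 leukocyte markers summed to 3.12 to 3.70, 2.26 to 3.27 and 3.42 to 4.34 CPM, with CD3E listed at 0 in every library, for a reason that was not tested. The 7 stromal and endothelial markers summed to 32.3 to 34.8, 86.5 to 87.0 and 44.2 to 44.5 CPM, with 3 of them (PECAM1, VWF and CDH5) under 10 counts in every library. The 7 genes of class II and professional antigen presentation summed to 7.26 to 8.28, 5.98 to 8.24 and 4.06 to 4.58 CPM, while the 9 class I genes summed to 364 to 371, 806 to 821 and 562 to 610 CPM. The stromal sum was highest in kd1, as the class I sum was, and COL1A1 made up most of it, at a mean of 23.9, 74.5 and 31.2 CPM in control, kd1 and kd2. LUM was highest in kd2, at 7.44, 9.01 and 11.9 CPM, and DCN was at 2.06, 2.48 and 0.543 CPM. Their part in the class I values was not tested. In bulk RNA, a change in the number of cells of a kind and a change in RNA per cell cannot be told apart.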

How the data were processed

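Counts of 35322 gene symbols in 6 libraries were used as deposited: per the labels, the study methods and the submitters' processing notes, the authors trimmed reads with AdapterRemoval and worked with FastQC 0.11.9, STAR 2.7.9a, HTSeq 0.13.5 and the hg38 build, and the deposited values are raw whole-number read counts per gene. The annotation and the use of strand in counting are not given in the sources used here. Of the symbols, 32852 matched GENCODE 44 by name.

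The counts were filtered (filterByExpr), scaled by TMM factors and tested with edgeR 4.0.16 (R 4.3.3) by the quasi-likelihood F test in 1 fit of the 3 groups, with 3 residual degrees of freedom. P-values were adjusted by Benjamini-Hochberg over all 16510 genes, and called under 0.05. CPM uses TMM-scaled library sizes; CPM per kilobase divides by the length of the Ensembl canonical transcript. Lowess curves (span 0.3) of each library's log2 CPM (prior count 2) on GC content and length gave the offsets of the trend-corrected fit. The scripts were tested on simulated data. Figures were drawn with matplotlib.

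The class I genes and the 10 lists (97 genes) beside them were chosen with earlier results of these data known. Named genes were the 9 class I genes, ZMYND11 and, from each pathway list, up to 4 with the largest absolute mean log2 fold change over both knockdowns among genes called in at least 1 and at a mean log2 CPM of at least 1, plus the 5 nearest in pattern. For the marker lists, sums are given. PSME1, RFXANK, RFXAP, NFYB, NFYC, CREB1, COL1A1, LUM, DCN and the genes listed at 0 were named after their values were seen. Alternatives were DESeq2 1.42.0, its size factors, library totals, every gene with reads, a minimum count of 10 per library, the replicate block, only the groups compared, GC and length offsets, and leaving out each library. Precision is limited by the 2 libraries in each group and by depth, 26844128 to 38193748 counts in each library.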

Additional observations from a re-analysis of the deposited data

Results flagged for a closer look

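Results are listed here because the effect against control differed between the 2 knockdowns, tested as kd2 against kd1 in the edgeR fit (adjusted p under 0.05, a threshold that 68.8% of all genes passed). Among the class I genes the log2 difference was -0.59 for HLA-B, -0.24 for HLA-C, -0.64 for B2M, 0.43 for TAP1, -1.80 for PSMB8 and -2.42 for PSMB9, so that of these 6 genes TAP1 alone was higher in kd2 and the 2 immunoproteasome subunits differed most. HLA-C had the opposite sign and HLA-B no call with the GC and length trend removed.

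Of 25 other genes tested, ZMYND11 and those named by rule from the pathway lists, 18 also differed. In the proteasome and loading lists the log2 difference was -0.94 for PSMB6, -1.72 for PSMB10, -0.50 for PSMB7, -0.29 for PSMB5, 1.08 for UGGT1, 1.24 for CANX, -0.54 for PDIA3 and -0.89 for TAPBPL. With the GC and length trend removed these differences shrank to -0.30 for PSMB6, -0.77 for PSMB10, -0.11 for PSMB7, 0.69 for UGGT1, 0.78 for CANX and -0.42 for TAPBPL and grew to -0.78 for PDIA3, and PSMB7 lost the call when the replicate block was added to that correction (edgeR adjusted p = 0.0556). PSMB5 was then higher in kd2 (0.21), and by library totals it lost the call (-0.11, edgeR adjusted p = 0.0961). Among regulators and interferon genes it was -1.01 for NLRC5, 0.24 for RFX5, 0.56 for IFNAR1, -1.88 for IRF7 and -1.03 for ISG15. With the GC and length trend removed, RFX5 (0.14, edgeR adjusted p = 0.117) and IFNAR1 (0.10, 0.0816) lost this call and ISG15 (0.06, 0.246) had the other sign without a call, while IRF7 stayed called at -0.98. RFX5 also lost it without the second kd1 library (0.101). Among class I-like genes it was -0.63 for MICA, 0.87 for MR1, -2.80 for FCGRT and 1.01 for ULBP1. MICA lost the call with the trend removed (-0.16, edgeR adjusted p = 0.194), and MR1, FCGRT and ULBP1 were then at 0.49, -2.07 and 0.76. FCGRT was called in opposite directions in the knockdowns against control, as was ULBP1, whose kd1 call (edgeR adjusted p = 0.0439) held in 5 of 15 alternatives. For ZMYND11 itself it was -0.28, with a larger difference of -0.68 once the trend was removed (edgeR adjusted p = 1.68e-08) and -0.10 by library totals, where it passed no threshold (edgeR adjusted p = 0.259). With 2 libraries in each group, no group was large enough to test for a library standing apart.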

How the results depend on the processing

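Of 354 recomputed log2 fold changes of the class I genes, 333 kept their direction and side of the threshold, 11 were called in neither fit and had the other sign, 3 lost the call, 5 gained one and 2 had the other sign with a call. Over the class I genes, ZMYND11 and the genes named by rule from the pathway lists, it was 1384 of 1479, with 20, 38, 28 and 9. The genes nearest in pattern and those named after their values were seen are not in this count. Counts of class I genes called, and of all genes called, stayed within 1.5 times of the main values under every alternative run. With GC and length offsets, without and with the replicate block, some called values among the genes recomputed above changed sign. For kd2 against kd1 these were HLA-C (0.45 and 0.45), PSMB5 (0.21 and 0.21) and ISG15 (0.064 and 0.064). For kd1 against control it was JAK1 (0.016 and 0.016). By library totals the sign changed for IFNAR1 in kd1 (-0.19). Among uncalled class I values, the offsets also turned PSMB9 in kd1 (-0.29) and TAP2 in kd2 against kd1 (-0.12), and library totals turned PSMB9 in kd1 (-0.09). HLA-C lies at a high GC percentile (87.9); the cause was not tested. Same-numbered libraries did not deviate together (correlations of replicate differences 0.01, -0.03 and -0.04), so the numbers only name them. The replicate block called 12545, 11688 and 10978 of all genes against 12882, 12118 and 11355 without it, and changed no class I call; among the other named genes it ended the kd1 calls of BST2 (edgeR adjusted p = 0.0608) and ULBP1 (0.0599). In the lists, library totals raised the calls among interferon signalling genes in kd1 from 4 to 8, and without the first control or second kd1 library 3 class I-like genes were called in kd1. Counts of calls in the class II, leukocyte and stromal lists, of 4 or 5 tested genes, moved under several settings. Depth limits HLA-F (0 to 4 counts) and TAP2 (6 to 20 counts).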
